A study of Mus musculus with 10 samples.

Results

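Knockdown of Med23 was examined in 10T1/2 cells, a mouse line derived from an embryo that keeps the look of a fibroblast and can be turned toward muscle, fat, bone and cartilage. The 4 arrays of this line were taken out of 10 in the series by their sample labels. All came from cells kept in medium with serum. They held cells labelled as control, cells labelled as overexpressing MAL, cells with the Med23 knockdown, and cells labelled with both treatments. The 2 arrays with the knockdown were set against the 2 without it, paired by MAL state: knockdown against control, and both treatments against MAL alone. The knockdown thus came once in plain cells and once in cells also labelled with MAL, called MAL cells below. The other 6 arrays came from immortalised mouse embryonic fibroblasts (MEFs), wild type or Med23 knockout, taken at 0, 30 or 90 min of serum, and serve below only for a spread and for values side by side. Each condition had 1 array and no replicate. The sources used here do not say how the knockdown and the overexpression were made or how long they lasted. The series was built to ask what Med23 does in cells that can become smooth muscle or fat.

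Med23 is a subunit of Mediator, the large complex that carries signals from transcription factors to RNA polymerase II. It is known as the subunit that Elk1 touches once MAP kinase has phosphorylated it. Elk1 is a partner of SRF, the serum response factor, which binds a short DNA element named the CArG box. With Elk1, SRF drives immediate-early growth genes such as Egr1 and Fos. With MAL (gene Mrtfa), a coactivator freed when actin is polymerised, SRF drives genes of the cytoskeleton and of smooth muscle contraction.

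Med23 itself, by its 1 probe set, gave 5.45 (control), 5.67 (MAL), 4.24 (knockdown) and 3.94 (both), on a log2 scale on which the median of all probe sets was 3.67. Both knockdown arrays lay below both others. The difference was -1.21 in plain cells and -1.73 in MAL cells, so the coefficient (the mean of the 2 pair differences, from an additive limma fit) was -1.47 (SE 0.22, n = 2 pairs, 2.77-fold lower, adjusted p = 0.0689). The adjusted p missed the threshold of 0.05. Mrtfa, the gene of MAL, read 8.65 (control), 8.33 (MAL), 8.54 (knockdown) and 8.44 (both), so its 1 probe set did not read higher on the arrays labelled with MAL. Whether that probe set covers the overexpressed sequence is not known here, and MAL state is taken from the labels. Of the fibroblast markers, Col1a1 read between 10.33 and 10.75, Col1a2 between 13.8 and 13.92 and Vim between 13.78 and 13.85 on the 4 arrays, far above that median.

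The poly-A spike-in controls, RNAs that are added in fixed amounts before labelling, had medians of 7.94 (control), 7.29 (MAL), 7.22 (knockdown) and 6.65 (both). They stood lower with the knockdown by -0.72 in plain cells and by -0.64 in MAL cells, and their part in the gene values was not tested. Array medians ran from 3.64 to 3.70. The signal of the 3' probe set of Gapdh minus that of the 5' one, a sign of RNA quality, lay between -0.12 and 0.01. In bulk RNA, fewer cells of one kind and less RNA per cell cannot be told apart.

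Many genes stood apart in the same direction in both pairs. Of 12440 genes tested, 1277 (10.3%) stood at least 0.58 (1.49-fold) higher with the knockdown in both pairs, and 720 (5.79%) stood at least that much lower. With a difference of at least 1 (2.0-fold) in both, the counts were 394 higher (3.17%) and 89 lower (0.715%). A further 6 genes (0.0482%) passed 0.58 upward in plain cells and downward in MAL cells, and 28 (0.225%) passed it the other way round. By any amount, 3993 genes (32.1%) were higher in both pairs and 5352 (43%) lower. Across genes, which are not independent replicates, r between the 2 pair differences was 0.671 (12440 genes, 2 pairs that share no array). The differences were wider in MAL cells, with an SD of 0.73 against 0.55 in plain cells, and 1319 of the 1997 genes past 0.58 in both pairs differed more in MAL cells.

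The limma fit called 0 genes at an adjusted p under 0.05 (0%), and 3972 (31.9%) had an unadjusted p under 0.05. The lowest adjusted p was 0.0689, shared by 415 genes. With 1 array a condition the fit has 1 residual degree of freedom, and p-values measure the residual spread of these 4 arrays, not that of replicate cultures. An alternative fit that takes the spread from all 10 arrays, those of the MEFs included, called 2812 genes, 1709 higher (13.7%) and 1103 lower (8.87%), while the coefficients stay as they are. After quantile normalization the 4-array fit called 2492, and the split of genes past 0.58 in both pairs went from 63.9% higher to 51.6% higher. The list counts below are to be read against the 10.3% of all genes that stood higher and the 5.79% that stood lower in both pairs. Counts called with the spread of all 10 arrays are to be read against 13.7% higher and 8.87% lower. That spread takes in any knockout difference in MEFs that changes with serum time, so genes that respond to serum can be given a wider one. All single genes are given as values, and "higher" or "lower" describes a level in these arrays. The same holds wherever both knockdown arrays are said to lie above or below both others. The share of all genes so separated is not given here, so such a separation is only a description of the gene named.

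**Figure D1:**
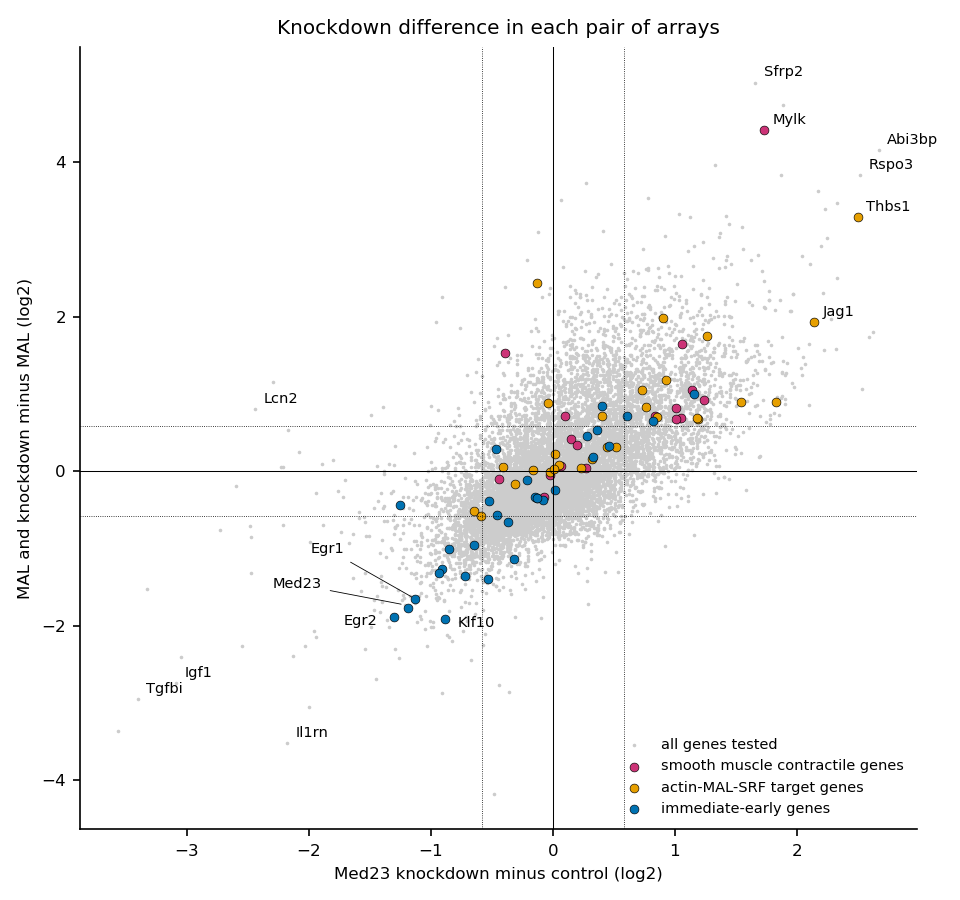
Each point is 1 of the 12440 genes tested, placed by its log2 difference with the knockdown in plain cells (horizontal) and in MAL cells (vertical); dotted lines mark 0.58 in either direction. Points run from lower left to upper right (r = 0.671); Mylk, Thbs1 and Jag1 of the smooth muscle and actin-MAL-SRF lists lie at the upper right, and Egr1, Egr2 and Klf10 of the immediate-early list at the lower left with Med23.

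Of the 12 leading genes that stood higher, Abi3bp had the largest coefficient. Abi3bp, an extracellular matrix protein gene, read 3.27 in the control and 2.69 with MAL, below the array medians, against 5.94 with the knockdown and 6.85 with both treatments (coefficient 3.42, SE 0.38, n = 2 pairs, at least 6.57-fold when the low levels are raised to the array medians, adjusted p = 0.0689). Rspo3, a secreted amplifier of Wnt signalling, read 6.50, 5.49, 9.02 and 9.32 in the order control, MAL, knockdown and both (3.18, SE 0.35, 9.03-fold, adjusted p = 0.0689). Thbs1, which encodes the matrix protein thrombospondin-1, read 5.08, 4.74, 7.58 and 8.03 in that order (2.90, SE 0.26, 7.44-fold, adjusted p = 0.0689). For all 3 genes the knockdown arrays lay above both others by more than 2.0 log2 units at the probe set used. Dimmer probe sets had mean differences of 1.55 for Abi3bp, 0.23 for Rspo3 and 2.24 for Thbs1.

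The array with MAL alone read lowest for all 12 leading genes, and by the most for Sfrp2 and Epas1. The choice of genes favours this, since a low MAL array raises the coefficient by which they were ranked. Sfrp2, a secreted modulator of Wnt signalling, read 8.95 (control), 4.30 (MAL), 10.61 (knockdown) and 9.33 (both). Its difference with the knockdown was therefore 1.66 in plain cells and 5.03 in MAL cells (coefficient 3.35, SE 0.79, 10.2-fold, adjusted p = 0.0871). Epas1, which encodes the hypoxia factor HIF-2alpha, read 8.18, 4.19, 10.07 and 8.93 in the order used above (3.32, SE 0.67, 9.95-fold, adjusted p = 0.0768). The 2 knockdown arrays were the highest for both genes at these probe sets. A dimmer second probe set of Epas1 read 4.79, 4.02, 4.94 and 4.32, with a mean difference of only 0.23. Mylk, the kinase that phosphorylates the regulatory light chain of smooth muscle myosin, had differences of 1.73 and 4.41 in plain and MAL cells (3.07, SE 0.64, 8.4-fold). Other probe sets of Mylk had mean differences of 3.29 and, for a dim one, 0.53.

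The further genes of the leading 12 were Pawr, a pro-apoptotic regulator (coefficient 2.90), Tnfrsf21, a death receptor of the TNF family (2.90, at least 6.06-fold), Npr3, the clearance receptor of natriuretic peptides (2.86, at least 5.78-fold), the metalloproteinase gene Adamts12 (2.81), the imprinted zinc finger gene Plagl1 (2.65) and Id4, an inhibitor of helix-loop-helix factors (2.64, at least 4.58-fold). Adjusted p-values of these further genes lay between 0.0689 and 0.0873. Other probe sets had mean differences of 0.87 for Tnfrsf21, 1.14 and 1.32 for Npr3, and 0.84 and 1.21 for Id4. At the probe set used, all 12 leading genes had their 2 knockdown arrays above their 2 other arrays. Choosing genes by large coefficients favours such a separation, and the share of all genes so separated is not given here.

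Of the 12 leading genes that stood lower, Tgfbi had the largest coefficient in size. Tgfbi, a secreted matrix protein gene named for its induction by TGF-beta, read 8.52 (control), 6.72 (MAL), 5.12 (knockdown) and 3.77 (both) (coefficient -3.17, SE 0.21, n = 2 pairs, 9.03-fold lower, adjusted p = 0.0689). Igf1, the insulin-like growth factor, read 9.34, 7.01, 6.25 and 4.27 in that order (-2.91, SE 0.20, 7.54-fold lower, adjusted p = 0.0689). Il1rn, the antagonist of the interleukin-1 receptor, read 11.07, 9.50, 8.89 and 5.98 (-2.85, SE 0.36, 7.21-fold lower). Each of the 3 was highest in the control and lowest with both treatments, with the MAL array above the knockdown array.

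Penk, the enkephalin precursor gene, showed the same order with 10.41, 7.83, 7.36 and 5.43 (-2.72, SE 0.23). Ifi27l2a, an interferon-inducible gene, read 10.16, 9.83, 8.16 and 6.78 (-2.52, SE 0.30). Crabp2, the carrier of retinoic acid, read 6.41, 5.98, 4.47 and 3.83 (-2.04, SE 0.19). The others among the lowest 12 were Wfdc3 (-2.42), the tetraspanin genes Tspan15 (-2.40) and Tspan11 (-2.01), Tmem9b (-2.26), the annexin gene Anxa8 (-2.14) and Tm7sf2, a sterol reductase of cholesterol synthesis (-2.07). Dimmer probe sets of Tspan11 had mean differences of -1.02 and -0.65. Adjusted p-values of the 12 lay between 0.0689 and 0.0735. In all 12 the groups did not overlap, which the choice by large coefficients again favours.

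**Figure D2:**
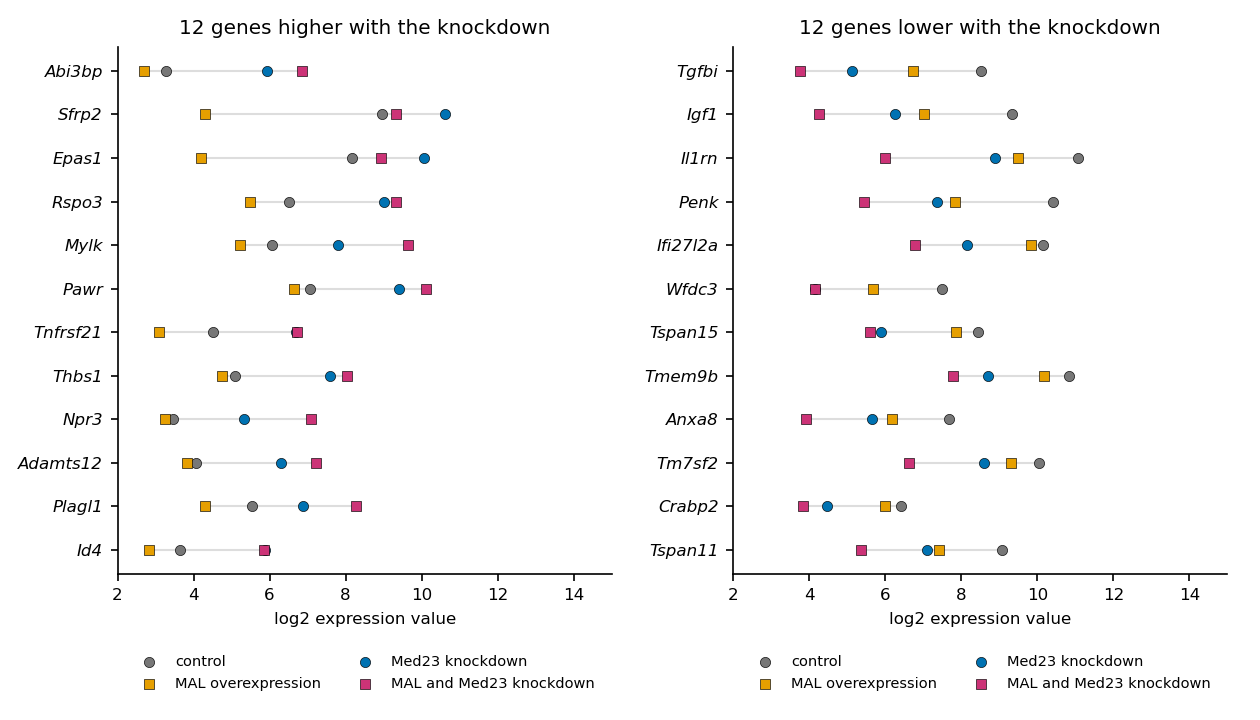
Log2 expression values on the 4 arrays for the 12 genes with the largest positive (left) and negative (right) knockdown coefficients under the naming rule; circles are plain cells, squares are MAL cells, and blue and pink mark the knockdown. In the left panel both knockdown arrays lie to the right of both others for all 12 genes, and in the right panel to the left. The choice of genes by large coefficients favours this.

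The smooth muscle contractile genes stood higher as a group. Of 17 tested, 8 were at least 0.58 higher in both pairs, against 10.3% of all genes, and 0 were lower by that much, against 5.79%. Their median coefficient was 0.57, where the median over all genes was -0.08. It was 0.27 in plain cells and 0.69 in MAL cells. By any amount, 13 of the 17 were higher in both pairs and 3 lower, against 32.1% and 43% of all genes. limma called 0 of the 17 over all genes, and 5 with the spread of all 10 arrays, all higher, against 13.7% of all genes.

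Tagln, an actin-binding protein and early marker of smooth muscle, read 6.64 (control), 10.12 (MAL), 7.78 (knockdown) and 11.17 (both) (coefficient 1.10, SE 0.18, n = 2 pairs, adjusted p = 0.0689). Cnn1, the contractile regulator calponin, read 3.83, 7.96, 4.89 and 9.61 in that order (1.36, SE 0.23, adjusted p = 0.0689). Myl9, a regulatory light chain of myosin, read 9.21, 11.73, 10.45 and 12.65 (1.08, SE 0.20, adjusted p = 0.0722). For these 3 genes the array with MAL alone lay above the array with the knockdown alone, so the groups overlap and the difference shows only within a MAL state. With the spread of all 10 arrays, the adjusted p was 0.0129 for Tagln, 0.0154 for Myl9 and 0.0753 for Cnn1.

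The enteric actin gene Actg2 gave 6.94, 11.48, 7.95 and 12.30 (coefficient 0.92), and the actin-nucleating leiomodin gene Lmod1 gave 4.89, 7.12, 5.90 and 7.80 (0.85). Tpm1, a tropomyosin gene, and Cald1, the gene of caldesmon, both of thin filaments, had coefficients of 0.87 and 0.78. Of 4 other probe sets of Cald1, the dimmest went the other way (-0.38). Other contractile genes did not share the difference. Acta2, smooth muscle alpha-actin, read 13.44, 13.90, 13.51 and 13.97, near the top of the scale, with 0.07 in either pair. Myh11, the myosin heavy chain of mature smooth muscle, stayed between 3.55 and 3.88, and Myocd, the coactivator that specifies smooth muscle, did not rise above 3.50 on any of the 4 arrays. Smtn, the gene of smoothelin, had a coefficient of -0.27 (adjusted p = 0.385).

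Actin-MAL-SRF target genes, which encode actin regulators, adhesion proteins and matrix ligands outside smooth muscle too, also stood higher. Of 29 tested, 12 were at least 0.58 higher in both pairs, against 10.3% of all genes, and 1 lower, against 5.79%, with a median of 0.42 (0.40 in plain cells and 0.67 in MAL cells). limma called 0 over all genes, and 9 higher and 0 lower with the spread of all 10 arrays, against 13.7% and 8.87% of all genes. Besides Thbs1, the largest coefficients were those of Jag1, a ligand of Notch receptors, which read 7.01 (control), 7.71 (MAL), 9.15 (knockdown) and 9.64 (both) (2.04, SE 0.19, adjusted p = 0.0689). Ccn2, connective tissue growth factor, read 7.26, 8.01, 8.52 and 9.76 in that order (1.51, SE 0.21, adjusted p = 0.0689). In both, the 2 knockdown arrays lay above the 2 others.

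Several cytoskeletal members stood above the control with MAL alone and with the knockdown alone, and were highest with both. Tpm4, a tropomyosin gene of non-muscle cells, read 9.68 in the control, 11.84 with MAL and 11.51 with the knockdown, and 12.74 with both. Vcl, the adhesion protein vinculin, read 10.86, 12.13, 12.05 and 12.80 in the order used above. Fhl1, a LIM domain protein of muscle, read 9.06, 11.63, 10.60 and 12.53. Coefficients were 1.37 for Tpm4, 0.93 for Vcl and 1.22 for Fhl1. Fermt2, the integrin activator kindlin-2, had 1.06, with a dim second probe set at -0.12. The PDZ-LIM gene Pdlim5 had 1.44, the actin-severing gene Dstn 0.94, the angiomotin-like gene Amotl2 0.89, the matricellular gene Ccn1 0.80 and the Arp2/3 subunit gene Arpc5 0.78. Coro1c, a coronin gene, was the 1 lower member (-0.58). The cytoplasmic actin gene Actb had 0.07, as Acta2 had.

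Promoter sequences from RefSeq (assembly GRCm38.p6, 300 bases per start site, 250 before and 50 after) were searched for the CArG box, which reads the same on both strands. It was found in 535 of 32851 windows of all genes (1.63%), and in 164 of the 10008 tested genes with a window (1.64%). Among the actin-MAL-SRF targets higher in both pairs, 3 of 10 genes with a window held one. It was held by 1 of 6 smooth muscle genes with a window that stood higher in both pairs. The same was so for 1 of 5 immediate-early genes with a window that stood lower. No window was available for Tagln, Actg2, Ccn2, Thbs1, Egr1, Egr3, Ier2 and Klf10, so these were not searched. Of all tested members of the actin-MAL-SRF, smooth muscle and immediate-early lists that have a window, a CArG box was found in 8 of 23, 1 of 14 and 3 of 22 genes. These 5 windows are shown because they put genes that stood higher and a gene that stood lower beside each other with the element that SRF binds, in capitals, in gene orientation:
Myl9, higher, chr2:156775214-156775513, plus strand: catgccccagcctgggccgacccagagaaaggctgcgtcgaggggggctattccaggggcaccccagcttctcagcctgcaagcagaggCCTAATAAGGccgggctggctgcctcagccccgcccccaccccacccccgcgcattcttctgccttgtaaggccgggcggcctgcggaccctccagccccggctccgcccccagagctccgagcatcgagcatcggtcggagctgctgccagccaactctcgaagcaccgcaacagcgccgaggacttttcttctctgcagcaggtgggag
Vcl, higher, chr14:20929148-20929447, plus strand: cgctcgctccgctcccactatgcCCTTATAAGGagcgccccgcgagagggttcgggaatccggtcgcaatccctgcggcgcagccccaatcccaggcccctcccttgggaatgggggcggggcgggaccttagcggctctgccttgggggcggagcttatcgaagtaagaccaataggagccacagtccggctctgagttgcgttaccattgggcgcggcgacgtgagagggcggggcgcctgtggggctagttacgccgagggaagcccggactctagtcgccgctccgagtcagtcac
Fhl1, higher, chrX:56779433-56779732, plus strand: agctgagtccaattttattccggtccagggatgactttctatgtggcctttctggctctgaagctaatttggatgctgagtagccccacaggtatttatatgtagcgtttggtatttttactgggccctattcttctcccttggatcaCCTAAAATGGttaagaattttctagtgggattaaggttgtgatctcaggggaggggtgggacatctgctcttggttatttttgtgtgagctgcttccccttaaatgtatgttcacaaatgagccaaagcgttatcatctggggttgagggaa
Fermt2, higher, chr14:45530016-45530315, minus strand: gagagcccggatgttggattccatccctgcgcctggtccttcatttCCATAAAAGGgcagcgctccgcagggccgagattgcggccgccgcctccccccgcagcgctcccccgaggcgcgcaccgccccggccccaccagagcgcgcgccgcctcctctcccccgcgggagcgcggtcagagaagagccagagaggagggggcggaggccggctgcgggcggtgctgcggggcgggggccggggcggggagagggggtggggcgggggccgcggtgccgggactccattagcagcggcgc
Egr2, lower, chr10:67537316-67537615, plus strand: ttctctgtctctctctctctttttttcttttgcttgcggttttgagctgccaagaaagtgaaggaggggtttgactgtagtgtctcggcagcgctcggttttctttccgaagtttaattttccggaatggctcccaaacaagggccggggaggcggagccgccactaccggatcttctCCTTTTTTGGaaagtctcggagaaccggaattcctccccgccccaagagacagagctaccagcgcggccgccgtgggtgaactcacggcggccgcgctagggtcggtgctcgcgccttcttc

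The element lies from 161 to 152 bases before the start in Myl9, from 227 to 218 in Vcl, from 102 to 93 in Fhl1, from 204 to 195 in Fermt2 and from 72 to 63 in Egr2. Elk1 binds Ets motifs beside a CArG box, and the 4 letters GGAA, the core of such motifs, were searched on both strands within 20 bases of it. They were found in the Egr2 window and not in the 4 others, and in 227 of the 535 windows with a CArG box. The Vcl and Fermt2 windows hold these letters, on one strand or the other, a few bases beyond that distance. The contrast with Egr2 thus depends on the distance chosen. A match is a run of letters only, and no binding was measured.

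Immediate-early genes, which growth signals switch on within minutes and which encode mostly transcription factors, stood lower on balance. Of 29 tested, 9 were at least 0.58 lower in both pairs, against 5.79% of all genes, and 3 were higher, with a median of -0.45. limma called 0 over all genes, and 5 lower and 0 higher with the spread of all 10 arrays, against 8.87% and 13.7% of all genes. Egr1, a zinc finger factor of the growth response, read 10.16 (control), 9.36 (MAL), 9.03 (knockdown) and 7.71 (both) (coefficient -1.39, SE 0.22, n = 2 pairs, adjusted p = 0.0689). Egr2, which is also known as an early factor of fat cell formation, read 5.75, 5.25, 4.45 and 3.37 in that order (-1.59, SE 0.22, adjusted p = 0.0689). Klf2, a zinc finger factor of the Krüppel-like family, read 9.64, 8.77, 8.45 and 7.0 (-1.48, SE 0.22, adjusted p = 0.0689). In all 3 genes the 2 knockdown arrays lay below the 2 others, and both treatments together gave the lowest level.

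Fos, a component of the AP-1 factor, read 7.45, 6.21, 6.60 and 5.21 in the order used above (-0.92, SE 0.18, adjusted p = 0.0768). Its groups overlapped, since MAL alone lay below the knockdown alone. Further lower members were Klf10, a TGF-beta-inducible factor (-1.39), Ier2 (-1.12), Egr3 (-1.09), the stress factor gene Atf3 (-1.03) and the AP-1 gene Junb (-0.80). With the spread of all 10 arrays the adjusted p was 0.00872 for Klf2, 0.0257 for Ier2, 0.0388 for Egr2, 0.0509 for Fos, 0.102 for Egr1 and 0.427 for Egr3. That spread takes in any knockout difference in MEFs that changes with serum time. It raised the SE from 0.20 to 0.96 for Egr3, from 0.22 to 0.55 for Egr1 and from 0.22 to 0.44 for Egr2. For Fos, Ier2 and Klf2 the SE rose less, to 0.28, 0.27 and 0.24. These p-values thus do not measure the spread of the knockdown pairs alone, and do not rank the genes by knockdown difference. Klf6, another Krüppel-like factor, stood higher (8.35, 9.25, 9.51 and 10.25, coefficient 1.08), as did the survival gene Mcl1 (0.74) and the antiproliferative gene Btg2 (0.66). Of 5 other probe sets of Mcl1, 1 had -0.31.

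Of the factors themselves, Srf, Mrtfa and Elk1 differed by less than 0.58 in either pair. Srf had pair differences of -0.13 and -0.34 (coefficient -0.23, adjusted p = 0.421), Mrtfa of -0.11 and 0.11, and Elk1 of -0.34 and -0.40 (-0.37, adjusted p = 0.23). Elk4, a relative of Elk1 that also joins SRF, read 7.26, 7.52, 8.53 and 8.87 in the order control, MAL, knockdown and both (1.31, SE 0.18, adjusted p = 0.0689), with -0.46 and 0.05 at dimmer probe sets. It was the 1 gene of 6 SRF cofactors past 0.58 in both pairs. The median of the 6 was 0.08, and -0.04 in plain cells alone. Of 16 genes of ERK feedback and Elk1 partners, 2 stood higher, a share near that of all genes, and 0 lower, with a median of 0.17 (0.08 in MAL cells and 0.07 after quantile normalization). They were Elk4 and the feedback inhibitor gene Spry2 (0.90), while the ERK phosphatase gene Dusp6 had 0.18.

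**Figure D3:**
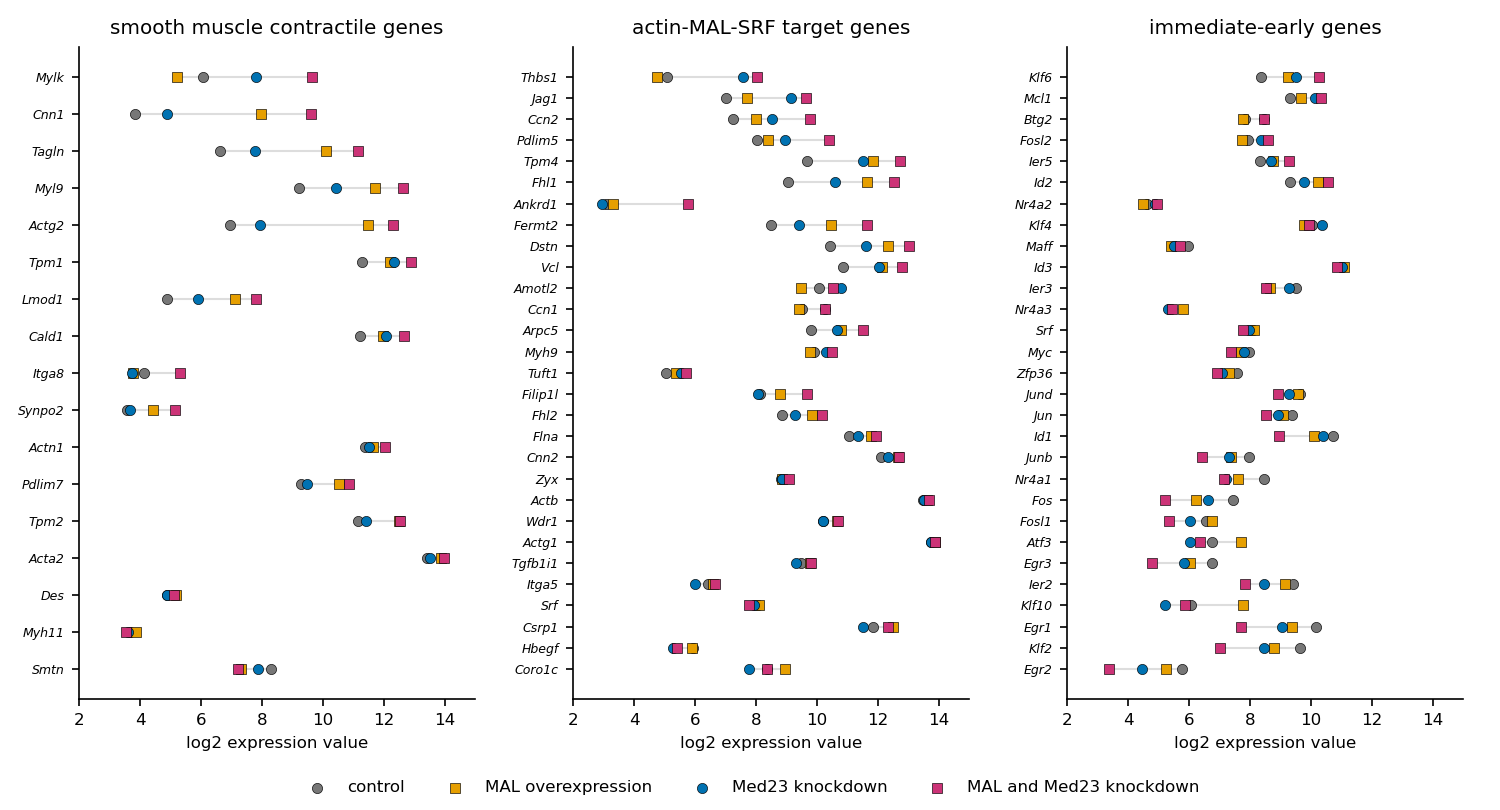
Log2 expression values on the 4 arrays for every tested member of the smooth muscle contractile, actin-MAL-SRF target and immediate-early lists, ordered by knockdown coefficient from the top down. In the upper rows of the first 2 panels pink lies to the right of orange and blue to the right of grey, and in the lower rows of the third the order is turned.

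Some genes of fat cells stood lower. Of 29 tested, 6 were lower in both pairs, against 5.79% of all genes. A further 4 were higher, near the 10.3% of all genes, and the median was -0.23. Pparg, the master regulator of fat cells, had pair differences of 0.20 and -0.07. Cebpa and Cebpb, which act with it, had coefficients of -0.41 and -0.47 and did not pass (adjusted p = 0.2 and 0.169).

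Of the 6 members that stood lower, 4 encode enzymes of triglyceride turnover. Dgat2, which makes triglyceride, read 6.57 (control), 5.70 (MAL), 5.55 (knockdown) and 4.51 (both) (-1.10, SE 0.19, adjusted p = 0.0689). A second probe set of Dgat2, brighter on these arrays, read 7.32, 5.75, 6.54 and 5.75 in that order, with a mean difference of -0.39 and none in MAL cells. Lipe, the hormone-sensitive lipase, read 7.11, 6.21, 6.08 and 5.48 (-0.88, SE 0.19). The other lower members were Dgat1 (-0.74, with 0.06 at a dim second probe set), the glycerol phosphate dehydrogenase gene Gpd1 (-0.68, with -0.42 at a dimmer one) and Egr2, described above. Dlk1, an inhibitor of fat cell formation, read 7.32, 4.69, 5.44 and 4.0 (-1.28, SE 0.33). Fabp4, the fatty acid carrier of fat cells, stood higher (coefficient 1.25) but read 3.30, 2.64, 4.89 and 3.55, below the array medians on 3 of 4 arrays. The other higher members were Gata3, known as a brake on fat cell formation (5.1, 4.85, 5.88 and 5.51, coefficient 0.72), and the insulin signalling genes Insr and Irs1, described next. The fat cell hormone gene Adipoq stayed between 3.26 and 3.72.

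Genes of insulin and IGF signalling were divided. Igf1r, the IGF1 receptor, read 6.69 (control), 6.72 (MAL), 8.30 (knockdown) and 8.91 (both) (1.90, SE 0.22, adjusted p = 0.0689). Insr, the insulin receptor, read 5.04, 5.34, 6.50 and 7.33 in that order, and Irs1, the substrate of both receptors, read 9.36, 9.37, 10.80 and 11.38. Both had a coefficient of 1.73 (SE 0.22, adjusted p = 0.0689). The control and MAL arrays of each of the 3 genes lay close to each other and below both knockdown arrays. Of 4 other probe sets of Igf1r, a bright one had 0.76 and the dimmest -0.25, and a dim one of Insr had -0.04.

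Against these, Igf1 stood lower (values above), together with Igfbp4 (5.56, 5.45, 4.19 and 3.95, coefficient -1.43) and Igfbp3 (5.96, 4.24, 4.59 and 3.13, -1.24), whose proteins bind and store IGF. Other probe sets of Igfbp4 had mean differences from -0.72 to -0.19 and one of Igfbp3 had -0.37. Igfbp5 (0.22), Igfbp6 (-0.30) and Igfbp7 (-0.28) did not pass. Igf2r, the clearance receptor of IGF2, had 1.06. In all, 2 of 9 genes of the insulin-like growth factor list were higher and 3 lower, against 10.3% and 5.79% of all genes. Their median of -0.28 was -0.42 in plain cells and -0.08 in MAL cells, and turned to 0.21 under a stricter filter on low levels.

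Several secreted Wnt factors stood higher. Of 17 genes of the Wnt pathway, 5 were higher in both pairs and 1 lower, with a median of 0.22 (0.12 without a filter on low levels, 0.41 under a stricter one and 0.34 with the mean of probe sets). Besides Sfrp2 and Rspo3, Wnt5a, a ligand of the non-canonical branch, read 3.88 (control), 4.09 (MAL), 6.16 (knockdown) and 6.06 (both) (2.13, SE 0.20, adjusted p = 0.0689). Ccn4, first described as a Wnt-induced gene, read 5.93, 7.59, 7.94 and 9.19 in that order (1.81, SE 0.20), and Sfrp1, a Wnt-binding antagonist, 6.23, 5.92, 7.40 and 7.76 (1.51, SE 0.24). All 3 had both knockdown arrays on top. Other probe sets of Sfrp1 had mean differences of 3.98, 3.08, 2.68 and 0.73. Those with 3.98 and 3.08 were brighter on the knockdown arrays than the probe set used, so the size for Sfrp1 depends on the probe set. Wnt5b was the 1 lower member (-1.07). Axin2, the usual readout of canonical Wnt signalling, stayed between 3.40 and 3.69, below or near the median of all probe sets.

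Of 11 genes of the BMP and Id list, 6 stood higher and 1 lower. Their median of 0.78 was 0.07 without a filter on low levels, which adds members below the overall median, and 0.59 under a stricter filter. The ligand gene Bmp4 read 9.98 (control), 9.50 (MAL), 11.37 (knockdown) and 10.99 (both) (1.44, SE 0.18, adjusted p = 0.0689). Fst, follistatin, which traps activins and BMPs, read 8.44, 8.12, 10.41 and 10.41 in that order (2.13, SE 0.20, adjusted p = 0.0689). The signal transducers Smad5 (1.13) and Smad1 (0.78), the decoy receptor gene Bambi (0.99) and Id4 were the other higher members, and the BMP antagonist Grem1 was the lower one (-0.96). Id1, the best-known BMP target, had differences of -0.32 and -1.13, opposite to the ligand.

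Of 21 genes of the TGF-beta and Notch list, 6 stood higher and 1 lower, with a median of 0.32. Tgfb2, a TGF-beta ligand, read 7.47 (control), 6.47 (MAL), 8.83 (knockdown) and 9.10 (both) (2.00, SE 0.34, adjusted p = 0.0693). The receptor genes Notch2 (1.25) and Tgfbr2 (0.71) and the latency protein gene Ltbp1 (0.69) were higher along with Jag1 and Ccn2, with -0.03 at a second probe set of Tgfbr2. Tgfbi was the lower member, and Tgfb1 had -1.01 in plain cells and -0.18 in MAL cells. Smad7, a feedback inhibitor, had 0.42 (adjusted p = 0.239).

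Of 30 extracellular matrix genes of fibroblasts, 0 stood higher in both pairs and 5 lower, with a median of 0.04 and of -0.14 in plain cells alone. The lower ones were the small proteoglycan genes Dcn (9.66, 7.19, 6.93 and 6.43 in the order control, MAL, knockdown and both, coefficient -1.74), Lum (-1.59) and Ogn (-1.0, with -0.62 at its other probe set), the elastic fibre gene Fbln2 (-1.13) and Thbs2 (-1.09). Dcn and Lum differed by -2.73 and -2.48 in plain cells but by -0.76 and -0.71 in MAL cells, where MAL alone had already read low. For Thbs2, dimmer probe sets had 0.39 and 0.21. With the spread of all 10 arrays limma called 3 of the 30 higher and 5 lower, against 13.7% and 8.87% of all genes. Tnc fell just short of the threshold, with 0.56 in plain cells and 1.88 in MAL cells (coefficient 1.22). The collagen genes Col1a1 and Col1a2 had coefficients of 0.14 and 0.01. Thbs1 and Thbs2, of the same family, thus stood on opposite sides.

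Cholesterol synthesis genes had 0 of 16 higher and 5 lower, with a median of -0.30, which was -0.09 in plain cells and -0.82 in MAL cells. The mevalonate enzymes Mvd (9.62, 8.84, 8.57 and 6.80, coefficient -1.54) and Mvk (9.44, 8.89, 8.35 and 7.02, -1.48) were lowest with both treatments. Fdps, which makes farnesyl diphosphate, read 11.74, 11.75, 11 and 9.68 (-1.40). The late enzymes Dhcr7 (-1.24) and Lss (-1.20) made up the 5, with 0.02 at a dimmer Lss probe set. Hmgcs1, at the head of the pathway, had 0.46 and Idi1 -0.18. Tm7sf2, named above, belongs to the same pathway and was not in the list.

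Of 28 interferon-stimulated genes, 0 stood higher and 3 lower, with a median of -0.33. The lower ones were Ifit1, which binds viral RNA (6.90, 7.88, 5.26 and 7.07, coefficient -1.22), Usp18, a brake of interferon signalling (5.78, 6.95, 4.74 and 5.59, -1.20), and Ifi35 (-0.72). Of 23 ER stress and ATF4 genes, 0 stood higher and 3 lower, with a median of -0.34 (-0.19 in plain cells): Trib3 (-1.55), the mTOR inhibitor gene Ddit4 (-0.89) and Sdf2l1 (-0.78). The metallothionein genes Mt1 (12.49, 11.99, 11.55 and 10.87, -1.03) and Mt2 (-1.17) were the 2 lower members of 16 oxidative stress and NRF2 genes, where the catalase gene Cat was higher (8.17, 8.50, 9.20 and 9.53, 1.03) and the median was -0.43 (-0.20 with the mean of probe sets).

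Of 17 genes of the p53 pathway, 3 stood higher and 0 lower, with a median of 0.32 (0.16 in plain cells and 0.19 with the mean of probe sets). Mdm2, the ligase that degrades p53, had 1.45 and Zmat3 1.30, along with Btg2, while the cell-cycle inhibitor gene Cdkn1a had 0.27 (adjusted p = 0.402). Of 18 chemokine and cytokine genes, Csf1, the macrophage growth factor (0.92), and Tnfaip3, a brake of NF-kB signalling (1.02), stood higher and Ccl9 lower (-0.97). Both counts are near the shares of all genes. Their median of 0.15 was -0.15 in plain cells, 0.71 in MAL cells and -0.01 without a filter. Of 18 hypoxia and glycolysis genes, Pfkfb3, a switch of glycolysis, stood higher (4.40, 4.10, 6.13 and 6.22, coefficient 1.93), with -0.29 at a dim second probe set. The glycolytic enzyme gene Pkm (-0.90) and the collagen hydroxylase gene P4ha1 (-1.16) stood lower, and the median was -0.05, and 0.03 in plain cells.

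Of 31 S phase and mitosis genes, 4 stood higher, near the 10.3% of all genes, and 0 lower, with a median of 0.19 (0.12 after quantile normalization). The helicase gene Mcm4 read 8.35 (control), 7.20 (MAL), 9.62 (knockdown) and 9.13 (both) (1.60, SE 0.24, adjusted p = 0.0689), and the nucleotide enzyme gene Rrm2 9.71, 7.95, 10.69 and 9.41 (1.22, SE 0.21). The spindle genes Kif11 (1.36, with 0.97 at a dimmer probe set) and Tpx2 (1.07) were the other 2, while the proliferation marker gene Mki67 had 0.05 in plain cells and 0.71 in MAL cells.

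No other Mediator subunit tested passed 0.58 downward in both pairs, as Med23 did. Of 32 tested, 4 stood higher, near the 10.3% of all genes, and 0 lower, with a median of -0.10 (-0.20 in plain cells). They were Med1, which nuclear receptors bind (7.07, 7.91, 7.88 and 9.0, coefficient 0.95, with -0.30 at a dim other probe set), Med4 (1.03), and Med13l (1.39) and Cdk8 (1.08) of the kinase module. Med24 and Med16 belong like Med23 to the tail of the complex. They had -0.36 and -0.48 and did not pass (adjusted p = 0.236 and 0.156). Med29 fell just short of the lower threshold, with -0.57 in plain cells and -0.80 in MAL cells. By any amount, 10 of the 32 were higher in both pairs and 16 lower, against 32.1% and 43% of all genes. With the spread of all 10 arrays limma called 6 higher and 2 lower, against 13.7% and 8.87%. Of 11 genes of the small RNA machinery, the route that a knockdown by RNA interference uses, Tnrc6a stood higher (1.01) and 0 lower. At that threshold 1 of 11 is near the share of all genes. By any amount, 10 of the 11 were higher in both pairs (32.1% of all genes) and 1 lower (43%). With the spread of all 10 arrays limma called 5 higher (13.7% of all genes) and 0 lower (8.87%). The median of the list was 0.68 (0.38 in plain cells and 0.27 with the mean of probe sets). Ago2 had 0.69 and Dicer1 0.94, both mainly in MAL cells. None of 14 Hox genes and none of 14 ribosomal protein genes passed 0.58 in both pairs, with medians of 0.12 (-0.09 in MAL cells) and -0.06.

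**Figure D4:**
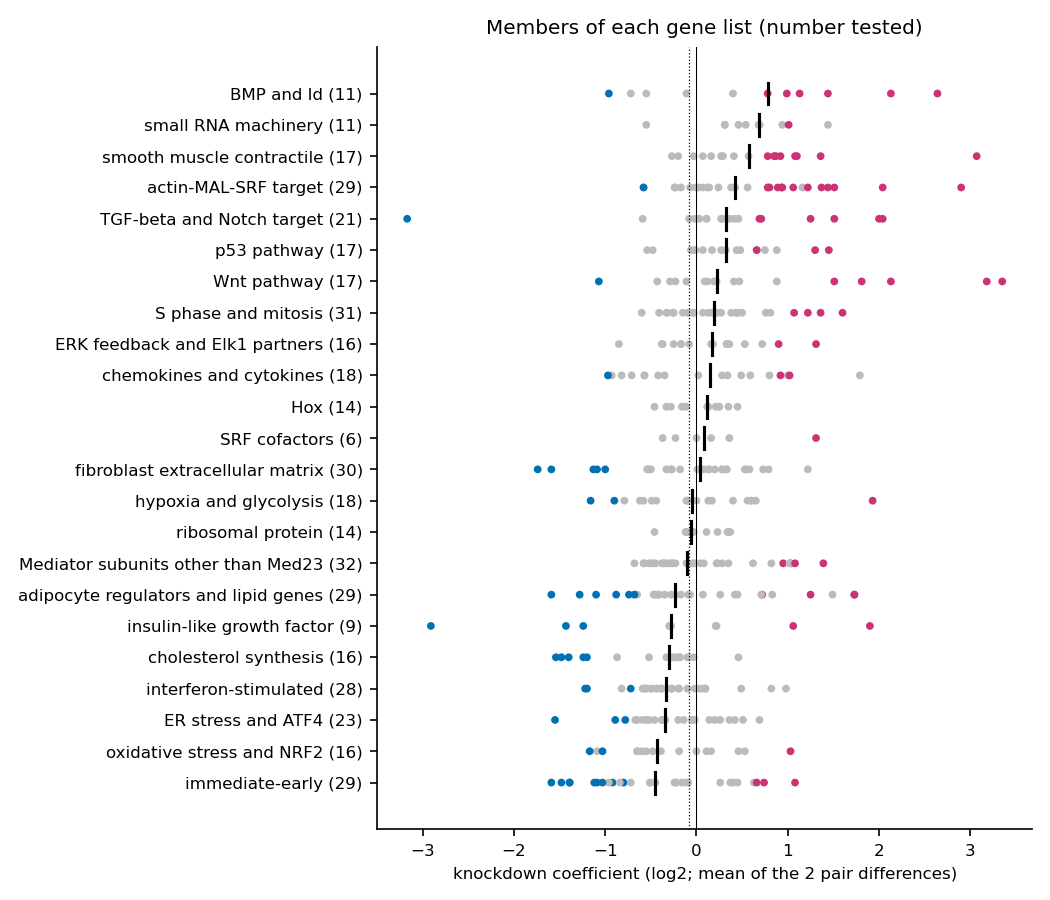
Knockdown coefficients (log2) of the tested members of the 23 pathway lists, 1 row per list with the number tested; pink members stood at least 0.58 higher in both pairs, blue ones lower, and black bars are medians. The dotted line is the median of all genes (-0.08); the smooth muscle and actin-MAL-SRF lists lie to its right (0.57 and 0.42) and the immediate-early list to its left (-0.45).

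Markers of macrophages, endothelium, epithelium and skeletal muscle read lower than those of the other cell types checked. Of 4 macrophage markers 3, and of 4 endothelial markers 3, did not reach the overall median on any of the 4 arrays, as was so for 2 of 4 epithelial and 2 of 4 skeletal muscle markers. The summed level of the macrophage markers was between 5.69 and 5.77, that of the endothelial ones between 5.31 and 5.64, that of the epithelial ones between 6.51 and 6.83, and that of the skeletal muscle ones between 5.87 and 6.37. Summed adipocyte markers read 8.41 and 7.58 without the knockdown and 8.32 and 7.51 with it, and summed bone and cartilage markers 10.24 and 9.28 without and 10.39 and 9.26 with it. Among neural markers Ncam1, an adhesion molecule, stood higher (6.0, 6.91, 7.96 and 8.05, coefficient 1.55), and their sum went from 7.37 to 8.44 in plain cells and from 7.91 to 8.55 in MAL cells. The fibroblast markers split as well, with the receptor gene Pdgfra higher (1.27) and the surface protein gene Thy1 lower (-1.13). Summed smooth muscle markers read 13.5 and 14.04 without and 13.57 and 14.24 with the knockdown, a sum that Acta2 fills.

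In MEFs that lack Med23, on arrays and cells of their own, the genes that stood higher here were called higher by limma in 411 of 1246 tested (33.0%) and lower in 237 (19.0%), where 21.2% and 20.8% of all 11933 genes were called higher and lower (42.1% in all). The genes that stood lower here were called lower there in 207 of 678 (30.5%) and higher in 150 (22.1%). Of the smooth muscle genes, 12 of 16 were called higher in the knockout. Of the cholesterol synthesis genes, 15 of 16 were called higher in the knockout, while 5 of 16 stood lower and 0 higher in the knockdown, a difference that was not tested.

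Of the leading genes, Sfrp2 (8.31), Abi3bp (7.33), Npr3 (5.13), Plagl1 (4.75), Rspo3 (3.95) and Adamts12 (2.93) also had positive and called knockout coefficients, the highest adjusted p being 0.00166. Il1rn (-3.36), Penk (-3.04), Tspan15 (-1.08), Anxa8 (-0.77) and Igf1 (-0.68) were lower in both and called by limma in the knockout, the highest adjusted p being 0.0238. Tgfbi went from -3.17 here to 6.36 in the knockout (adjusted p = 3.19e-06).

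**Figure D5:**
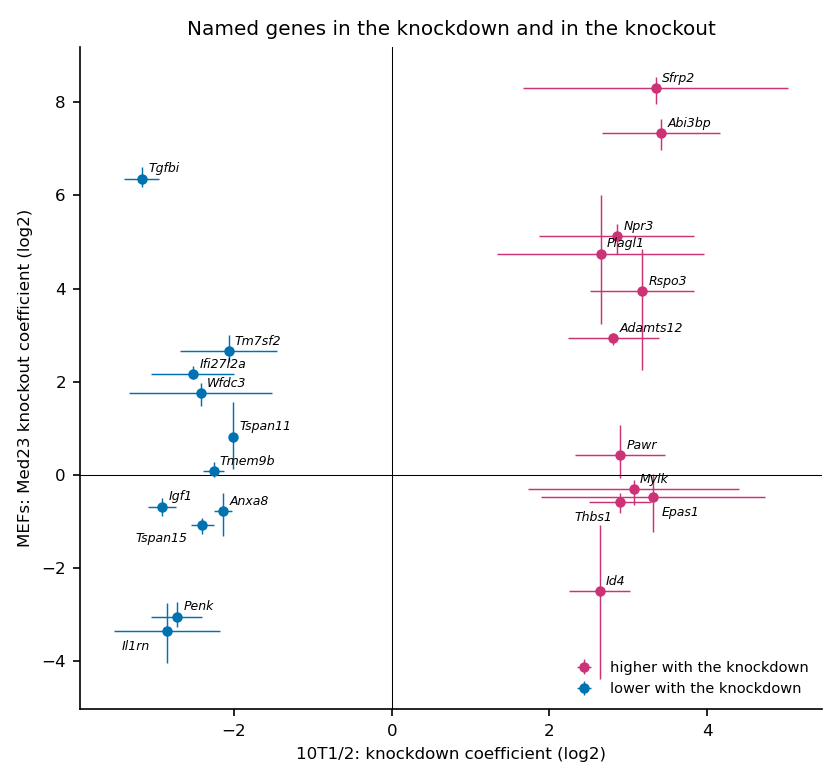
Knockdown coefficients in 10T1/2 cells (horizontal) and Med23 knockout coefficients in MEFs (vertical), both log2, for the 22 leading genes tested in both; bars run over the 2 pairs and over the 3 serum times and are ranges, not errors. Sfrp2 and Abi3bp lie at the upper right, Il1rn and Penk at the lower left, and Tgfbi at the upper left with -3.17 and 6.36.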

How the data were processed

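Biotinylated cRNA made from total RNA was read on Affymetrix arrays, per the labels' protocols. The authors deposited log2 expression values for 45101 probe sets. The submitters' processing notes list RMA and MAS5 without roles. The log2 scale was read from the values (1.85 to 14.25 in 10T1/2 cells), and the sources used here do not say whether both cell types were normalized as 1 set. Names came from the platform annotation (34945 probe sets with 1 symbol, 932 with several left out, 9160 unnamed, 64 controls), updated to RefSeq GRCm38.p6. A gene was represented by its probe set with the highest mean over all 10 arrays, which need not be the brightest in 10T1/2 cells, and tested when its highest value on the 4 arrays passed 3.67. limma 3.58.1 in R 4.3.3 fitted knockdown and MAL additively (1 residual and 3.83 prior degrees of freedom), with two-sided p-values adjusted by Benjamini-Hochberg over 12440 genes. The fit was tested on simulated data. Since no gene passed the test, the genes named were Med23 and the 12 largest coefficients in each direction among genes with at least 0.58 in the same direction in both pairs and a mean on the higher side at least 1 above the median, clone and EST names skipped. List members past 0.58 in both pairs or first in their list were named too, and further members were chosen after their values were seen. Of 586 entries in 32 lists, 545 had a named probe set. The members and lists were chosen with earlier results of these data known. Alternatives were quantile normalization, median centring, other filters, the mean of probe sets, a trended prior, no MAL term, the spread of all 10 arrays, and each pair left out. Of 123 named and listed genes, 72 had another probe set above the median, and in 58 all of these had the same sign. Arrays have no read depth, and precision is limited by their number. Where no labels tell of separate cultures, p-values measure only the spread between these arrays.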

Additional observations from a re-analysis of the deposited data

Results flagged for a closer look

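For 8 of the 22 leading genes tested in both cell types, both knockdown pairs in 10T1/2 cells went one way and all 3 serum times of the knockout in MEFs the other way. Mylk, Thbs1 and Id4 stood higher with the knockdown and had knockout coefficients of -0.31, -0.59 and -2.50, of which that of Mylk was not called by limma (adjusted p = 0.153). Tgfbi, Ifi27l2a, Wfdc3, Tm7sf2 and Tspan11 stood lower with the knockdown and had knockout coefficients of 6.36, 2.17, 1.75, 2.66 and 0.82. The difference between the cell types was not tested.

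A few genes had opposite knockdown differences in plain and MAL cells. The 6 genes at least 0.58 higher in plain cells and lower in MAL cells included Krt15 (0.86 and -0.64) and Tcim (1.16 and -0.82). The 28 genes that went the other way included secreted genes of the acute-phase and chemokine kind: Lcn2 (-2.44 and 0.80), Saa3 (-2.29 and 1.15), Hp (-0.91 and 2.25), Lbp (-0.61 and 1.45) and Ccl2 (-0.96 and 1.93). Each of these 5 read lower with MAL alone than in the control, Hp going from 9.77 to 4.07. These genes were picked after their values were seen, each pair is 1 array against 1, and the difference was not tested.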

How the results depend on the processing

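The count of genes called by limma was 0 in the fit described above and stayed 0 with median centring, no filter, a stricter filter and no term for MAL (no pairing block), with lowest adjusted p-values between 0.057 and 0.452. It became 340 with the mean of probe sets, 599 with a trended prior, 2492 after quantile normalization and 2812 with the spread of all 10 arrays. Without 1 of the pairs, with the spread of the MEF arrays and the lone pair assumed to vary like them, the count was 274 (plain cells only) and 1900 (MAL cells only). Genes higher in both pairs numbered 735 with the mean of probe sets in place of 1277. Genes with opposite differences numbered 3 in place of 6 under the stricter filter and 14 in place of 28 with the mean of probe sets. Med23 and the 24 leading genes kept their direction in every alternative in which they were tested, and all 25 passed the threshold after quantile normalization and with the spread of all 10 arrays, 22 with a trended prior and 17 with the mean of probe sets. The labels give no replicate numbers, and the pairs are those of MAL state. The values come with no background call, so levels near 3.67 cannot be told from background.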

Other observations

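The genes below were picked from the next 18 in each direction after their values were seen, and stand for no group. Fat1, an atypical cadherin, read 8.56 (control), 9.32 (MAL), 10.67 (knockdown) and 12 (both), and its relative Fat4 read 7.63, 8.45, 9.67 and 11.23 in that order. Efnb2, an ephrin ligand, read 7.18, 8.06, 9.39 and 10.37. In all 3 genes both knockdown arrays lay above both others. Gli2, a transcription factor of Hedgehog signalling, had a coefficient of 2.18, the microfibril gene Fbn2 2.32, the receptor gene Lifr of leukaemia inhibitory factor 2.16 and the methionine sulphoxide reductase gene Msrb3 2.21.

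On the lower side were Gch1, the first enzyme of tetrahydrobiopterin synthesis (8.36, 8.37, 6.89 and 6.57 in the order control, MAL, knockdown and both), and Gchfr, the regulator of that enzyme (8.64, 8.35, 7.10 and 6.05). The cartilage collagen gene Col2a1 read 10.20, 8.86, 8.84 and 6.93, and the water channel gene Aqp1 11.19, 11.06, 9.90 and 8.76. Lgals3, the lectin galectin-3, was among the brightest of the lower genes with 13.01, 13.26, 11.75 and 10.85. Both knockdown arrays lay below both others for each of these 5 genes.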
